A study of Homo sapiens with 6 samples.

Results

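The circRNAs described here are the 803 that carry an identifier beginning with novel_circ, of 3089 circRNAs counted in C28/I2 chondrocytes treated with or without cholesterol. They were chosen by this prefix alone, and the other 2286 circRNAs, whose identifiers begin with hsa_circ, served as the comparison set. C28/I2 is an immortalised line of human chondrocytes, the cells of cartilage. The cholesterol group was cultured with 10 μg/mL cholesterol for 48 h and the control group for 48 h without it, with 3 libraries each. The libraries are cultures of 1 cell line, and nothing further states how separately the cultures of a group were kept, so that p-values measure the spread between these 6 libraries. The table pairs no identifier with a gene, and the chondrocyte label was not checked against marker genes.

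CircRNAs arise by back-splicing, in which a splice donor is ligated to an acceptor that lies upstream in the transcript, leaving a closed RNA without free ends. Without free ends they resist exonucleases such as RNase R, which digests linear RNA, and some are known to bind microRNAs or proteins. In RNA-seq they are recognised by reads that cross the back-splice junction. In circBase, a public catalogue, a listed human circRNA carries an hsa_circ number. The study's methods name circBase, circbank and circAtlas as the catalogues searched with its circRNA sequences. By which of them, and by what match, a junction received the novel_circ prefix was not analysed here, and the word in the identifier is taken as a name only.

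Of the novel_circ circRNAs, novel_circ_0000296 can be placed in the genome, because a divergent primer pair for it is given among the study's designed oligonucleotides. The pair is shown because it identifies the gene and exon of the circRNA that later has the smallest p-value of all 803 in the main edgeR fit. The study followed this circRNA up, with Sanger sequencing of its junction, because it differed between the groups in these same libraries. Its primers and its p-value are therefore not independent.

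forward primer of novel_circ_0000296: accatgtgggaggaggaaaat

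reverse primer of novel_circ_0000296: aagcctggagccttttcaaga

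On GRCh38, the forward primer matched chr11:12764385-12764405 on the plus strand and the reverse primer chr11:12764187-12764207 on the minus strand, each 1 time in the main chromosomes. Both lie in exon 3 of 13 of transcript ENST00000527636 of TEAD1 (ENSG00000187079, chr11:12674421-12944737, plus strand; GENCODE v44). TEAD1 is a transcription factor that binds DNA as the partner of the Hippo pathway co-activators YAP and TAZ. The exon spans chr11:12764179-12764434 and is 256 nt long, with a GC content of 50.4%. Its first 54 nt are untranslated and the remaining 202 nt, chr11:12764233-12764434, are coding. On the linear transcript the primers point away from each other with 177 nt between them, the layout of primers for a back-spliced junction. The coding part of the exon is printed with the forward primer site in capitals.

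coding part of TEAD1 exon 3: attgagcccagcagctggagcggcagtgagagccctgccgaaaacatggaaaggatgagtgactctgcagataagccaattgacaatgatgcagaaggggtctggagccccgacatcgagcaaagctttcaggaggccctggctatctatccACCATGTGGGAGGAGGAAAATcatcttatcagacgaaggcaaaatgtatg

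The forward primer ends 29 nt before the end of the exon, and the reverse primer site begins 8 nt into it, in the untranslated part. The 10 intron bases on either side are shown with the splice-site dinucleotides in capitals, since back-splicing uses the same donor and acceptor as linear splicing.

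intron bases before TEAD1 exon 3: tctcttctAG

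intron bases after TEAD1 exon 3: GTaagtggcc

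Whether the circle holds this exon alone or further exons was not analysed here. For the remaining novel_circ circRNAs, neither position nor sequence was analysed here.

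The novel_circ circRNAs made up 26.0% of the identifiers but a smaller part of the reads. Over the 6 libraries they held 8833 of 70508 junction reads, against 61675 for the hsa_circ circRNAs. A novel_circ circRNA had a median of 5 reads in all libraries together, ranging from 2 to 466, and an hsa_circ circRNA had a median of 11, with a highest value of 1026. At least 10 reads were reached by 190 novel_circ circRNAs (23.7%) and by 1220 hsa_circ circRNAs (53.4%). At least 60 reads were reached by 17 and 232 of them, respectively. The 10 most abundant novel_circ circRNAs held 21.1% of the novel_circ reads.

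The share of a library's junction reads that lay on novel_circ circRNAs was 11.1% (95% Wilson interval 10.6 to 11.7), 12.6% (12.0 to 13.1) and 11.6% (11 to 12.3) in cholesterol replicates 1 to 3. In control replicates 1 to 3 it was 12.6% (12.0 to 13.2), 13.6% (12.9 to 14.2) and 13.3% (12.8 to 13.9). The groups overlapped, since cholesterol replicate 2 lay just above control replicate 1. This overlap depended on the count minimum: with counts under 3 left out the groups separated (difference -1.36 points, exact two-sided permutation p = 0.1), and with counts under 5 left out the exact p was again 0.2. The share averaged 11.8% ± 0.736 in the cholesterol and 13.1% ± 0.526 in the control libraries (SD, n = 3 each), which is a difference of -1.38 percentage points (exact two-sided permutation test, p = 0.2, Benjamini-Hochberg adjusted over 7 comparisons of libraries 0.28). With 3 libraries against 3, p cannot fall below 0.1. Reads carry no molecular identifier, so that these intervals and the limits given below for a listed count of 0 cover counting error only.

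The number of novel_circ circRNAs with reads was 189, 271 and 138 in the cholesterol libraries and 208, 227 and 284 in the control libraries. Their depth was 10944, 14322 and 9168 junction reads and 11142, 11351 and 13581 junction reads, respectively. The number followed the depth from library to library, apart from the deepest and the next deepest, which changed places. The means of 199 ± 67.1 and 240 ± 39.6 (SD, n = 3 each) differed by less than the cholesterol SD and by slightly more than the control SD (exact two-sided permutation test, p = 0.4, adjusted 0.467). Their difference of -40.3 was -76.2 without cholesterol replicate 2, the deepest library, -9.67 without cholesterol replicate 3, the shallowest, and -18.2 without control replicate 3. When every library was thinned to the 9168 reads of the shallowest, the expected numbers were 179, 227 and 138 with cholesterol and 197, 213 and 242 without it, and the groups still overlapped.

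**Figure D1:**
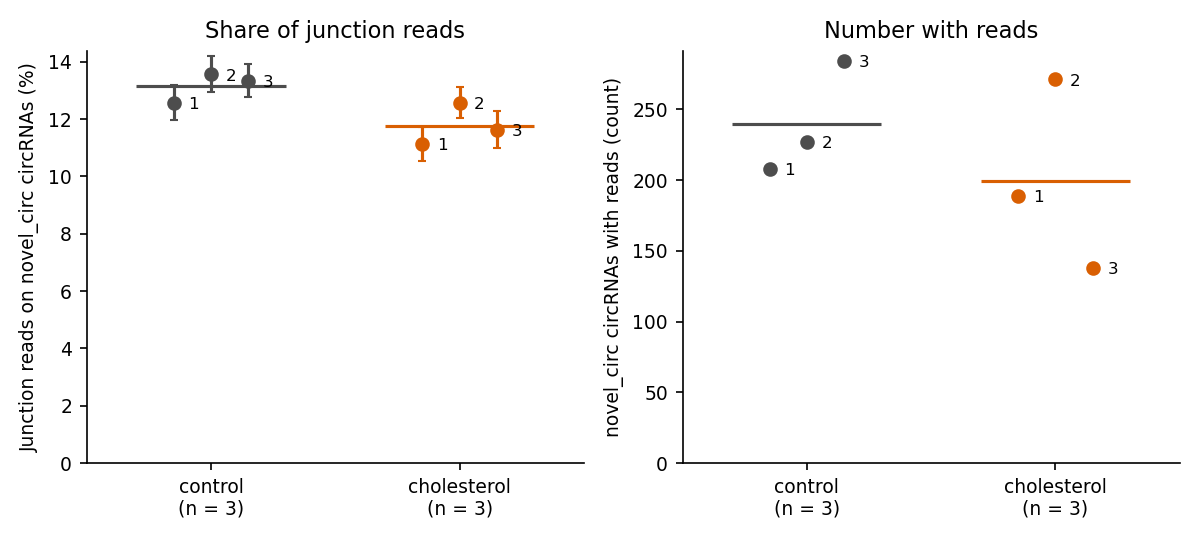
Percent of junction reads on novel_circ circRNAs (left, bars 95% Wilson intervals) and number of novel_circ circRNAs with reads (right) in each of the 3 cholesterol and 3 control libraries; a point is a library and a line a group mean. The share runs from 11.1% to 13.6% and the number from 138 to 284, and the groups overlap in both.

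Where a novel_circ circRNA was detected in a library it had fewer reads than an hsa_circ circRNA detected there. The mean per novel_circ circRNA with reads was 6.44, 6.65 and 7.72 reads in cholesterol replicates 1 to 3 and 6.73, 6.78 and 6.38 reads in control replicates 1 to 3. The corresponding means of the hsa_circ circRNAs were 9.82, 11 and 10.4 reads and 10.0, 9.42 and 9.80 reads. The means over the libraries were 6.78 and 10.1 reads, a difference of -3.30 reads, and the novel_circ value was the lower one in 6 of 6 libraries (exact two-sided paired permutation test, p = 0.031, adjusted 0.0547). This p is the smallest that 6 libraries allow, and it misses 0.05 after adjustment. Of the listed novel_circ circRNAs, 17.2% to 35.4% had reads in a given library, with a mean of 27.3%, against a mean of 44.6% of the hsa_circ circRNAs, a difference of -17.3 points that had the same sign in 6 of 6 libraries (same test, exact p = 0.031, adjusted 0.0547). Every listed circRNA has reads in at least 1 of these same 6 libraries, so these percents are not independent. Both comparisons also count the same circRNAs in each library, and their p-values are descriptive.

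Most novel_circ circRNAs were seen in a single library. Reads in 1 library only were found for 565 of the 803 (70.4%), in 2 libraries for 116 (14.4%), in 3 for 46 (5.73%), in 4 for 27 (3.36%), in 5 for 20 (2.49%) and in all 6 for 29 (3.61%). The hsa_circ circRNAs lay further towards the other end, with 886 (38.8%) in 1 library only and 302 (13.2%) in all 6. The few novel_circ circRNAs present in every library nevertheless carried the largest portion of the novel_circ reads, 33.7%, while those of a single library carried 28.1%. Among hsa_circ circRNAs the corresponding shares were 57.8% and 6.99%. At a given number of libraries, however, both kinds were about equally abundant. The median over the 6 libraries was 4 reads for novel_circ and 4 reads for hsa_circ circRNAs seen in 1 library, 16 and 16 reads for those seen in 3, and 84 and 81 reads for those seen in all 6.

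**Figure D2:**
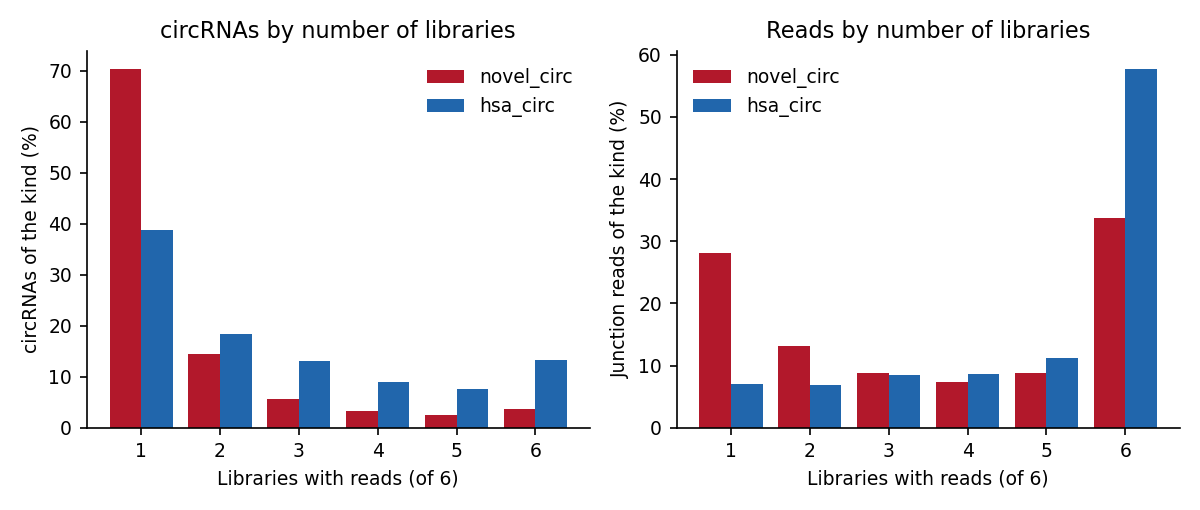
Percent of circRNAs (left) and percent of their junction reads (right) by the number of libraries, 1 to 6, in which a circRNA had reads, for the 803 novel_circ and the 2286 hsa_circ circRNAs (bars, all 6 libraries). Novel_circ circRNAs pile up at 1 library (70.4% against 38.8%), whereas 33.7% of their reads lie on the 29 present in all 6.

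The 565 novel_circ circRNAs of a single library had between 2 and 15 reads there, with a median of 4, and 219 of them (38.8%) had 2 or 3 reads. No count of 1 is listed for any circRNA in the table, so that 2 is the smallest count that could be seen. Only 17 of the 565 reached 10 reads. The highest was novel_circ_0002379, with 15 reads in control replicate 2 and 0 reads in the other 5 libraries. It was followed by novel_circ_0000268 with 13 reads in cholesterol replicate 2, and by novel_circ_0001376 and novel_circ_0001679 with 12 reads each in cholesterol replicate 1 and novel_circ_0002383 and novel_circ_0003815 with 12 reads each in cholesterol replicate 2. These single-library circRNAs numbered 80, 130 and 38 in cholesterol replicates 1 to 3 and 82, 97 and 138 in control replicates 1 to 3, most in the 2 deepest libraries and fewest in the shallowest.

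Recurrence, the percent of circRNAs with reads in a library that also had reads in at least 1 of the other 5, describes the same counts from the side of the library. For novel_circ circRNAs it was 57.7%, 52.0% and 72.5% in the cholesterol libraries and 60.6%, 57.3% and 51.4% in the control libraries. For hsa_circ circRNAs it was 86.5%, 85.1% and 88.8% and 86.4%, 85.3% and 82.4%. The novel_circ value was lower in 6 of 6 libraries, with a mean difference of -27.2 points (58.6% against 85.8%; exact two-sided paired permutation test, p = 0.031, adjusted 0.0547). Recurrence in a library is counted against the other 5, so the 6 values are not independent. The p-values for recurrence, here and below, are therefore descriptive. Between the groups the novel_circ recurrence averaged 60.7% ± 10.6 with cholesterol and 56.4% ± 4.64 without it (SD, n = 3 each). The difference of 4.30 points was within the spread between libraries (exact two-sided permutation test, p = 0.6, adjusted 0.6). The shallowest library, cholesterol replicate 3, had the highest recurrence, and without it the difference was -2.20 points.

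Read counts differ between the 2 kinds and recurrence rises with the count, so the comparison was repeated among circRNAs with 2 to 5 reads in the library. Recurrence was then 50.8%, 43.7% and 58.8% for novel_circ circRNAs in the cholesterol libraries (n = 118, 158 and 68) and 43.9%, 41.5% and 38.1% in the control libraries (n = 123, 130 and 176). The hsa_circ circRNAs with 2 to 5 reads recurred in 71.6% to 80.3% per library. The means of 46.1% and 76.7% differed by -30.6 points, with the novel_circ value lower in 6 of 6 libraries (same test, exact p = 0.031, adjusted 0.0547). The gap at low counts was thus of similar size as that over all circRNAs. By finer steps, novel_circ circRNAs recurred in 44.7% ± 7.53 (SD over 6 libraries) at 2 or 3 reads, 47.6% ± 11.5 at 4 or 5, 67.4% ± 8.35 at 6 to 9 and 87.7% ± 9.66 at 10 to 19. The hsa_circ values were 73.8% ± 5.0, 78.9% ± 1.83, 87.1% ± 2.87 and 96.7% ± 0.936. The distance between the kinds was no smaller at 4 or 5 reads than at 2 or 3 and became smaller from 6 reads on. From 20 reads on all novel_circ circRNAs recurred, although only 5 to 11 per library were so abundant.

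**Figure D3:**
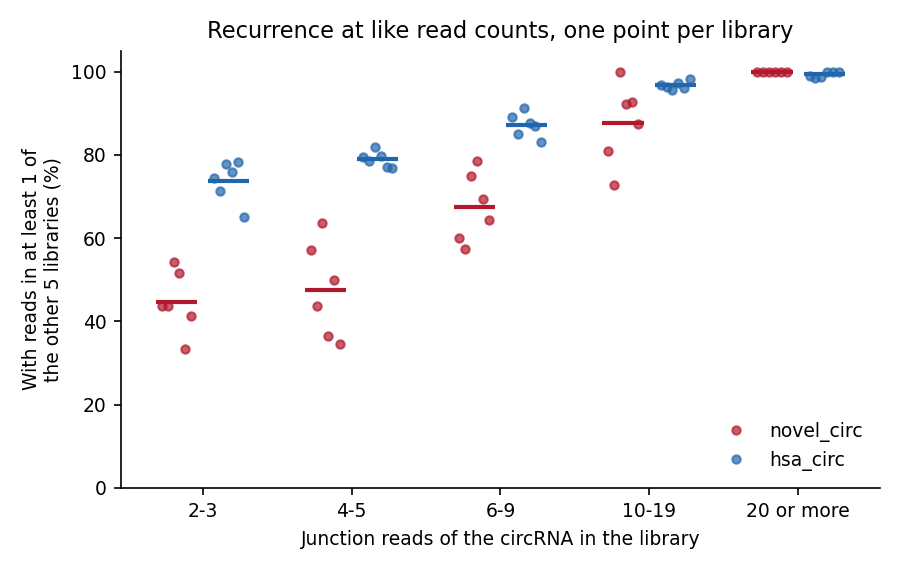
Percent of circRNAs with reads in a library that also had reads in at least 1 other library, by their read count in that library, for novel_circ and hsa_circ circRNAs; a point is a library and a line the mean of the 6. The novel_circ line starts at 44.7% at 2 or 3 reads, below the hsa_circ line at 73.8%, and meets it at 20 or more reads.

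Libraries of the same group and libraries of different groups shared about as many novel_circ circRNAs. Of the novel_circ circRNAs with reads in either library of a pair, the 6 pairs within a group shared 16.8% to 20.8% (median 19.1%) and the 9 pairs between groups 16.8% to 21.6% (median 18.9%). These ranges overlap almost wholly and are given as a description, since the pairs share libraries. The hsa_circ circRNAs were shared in 38.2% to 42.9% within and 37.5% to 43.2% between groups. Reads in cholesterol libraries alone were found for 270 novel_circ circRNAs (33.6%), in control libraries alone for 350 (43.6%) and in both groups for 183 (22.8%), beside 23.5%, 31.3% and 45.2% of all 3089 circRNAs. A circRNA with reads in 1 library only, as 70.4% of novel_circ and 47.0% of all circRNAs were, falls in 1 group by necessity. The mean CPM, the reads scaled to a common library total after TMM normalization, was higher with cholesterol for 345 novel_circ circRNAs (43.0%) and lower for 458 (57.0%), beside 45.3% and 54.7% of all 3089 circRNAs.

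The 10 most abundant novel_circ circRNAs had reads in every library. The first was novel_circ_0001800, with 70, 78 and 74 reads in cholesterol replicates 1 to 3 and 74, 98 and 72 reads in control replicates 1 to 3. It ranked 10th among all 3089 circRNAs by mean CPM, and its 466 reads amounted to 5.28% of the novel_circ reads. Its reads stayed between 70 and 98, with group means of 6391 ± 609 and 7042 ± 1699 CPM (SD, n = 3 each). These means differed by less than the control SD and by slightly more than the cholesterol SD. The next, novel_circ_0000385, had 35, 65 and 30 reads with cholesterol and 45, 31 and 59 reads without it, 265 in all. It was followed by novel_circ_0000334, with 60, 53 and 27 reads and 37, 38 and 41 reads, 256 in all. In both, the reads of 1 group spanned those of the other.

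At rank 43 among all circRNAs, novel_circ_0002923 had 35, 34 and 40 reads in the cholesterol libraries and 22, 14 and 30 reads in the control libraries. Every cholesterol library lay above every control library, with means of 3166 ± 630 and 1860 ± 553 CPM (SD, n = 3 each), a ratio of 1.70. The order was the opposite for novel_circ_0002620 at rank 73, which had 18, 13 and 10 reads with cholesterol and 36, 22 and 30 reads without it. Here all 3 cholesterol libraries lay below all 3 control libraries, with means of 1179 ± 368 and 2510 ± 575 CPM (SD, n = 3 each), the control mean 2.13 times the cholesterol mean. For each, an exact two-sided permutation test on CPM gave p = 0.1, the smallest that 3 libraries against 3 allow.

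The remaining 5 lay between ranks 80 and 109. With cholesterol, novel_circ_0001815 had 13, 32 and 16 reads, against 28, 15 and 19 reads without it. For novel_circ_0004122 the reads were 20, 19 and 16 against 8, 27 and 25, and for novel_circ_0001279 they were 8, 26 and 10 against 15, 30 and 26. For novel_circ_0003530 they were 10, 33 and 14 against 27, 14 and 17, and for novel_circ_0004645 they were 12, 29 and 15 against 8, 17 and 28. In each of these 5 the groups overlapped, and in 4 of them the highest library had more than 3 times the unscaled reads of the lowest. In CPM this ratio was 2.79 for novel_circ_0003530. For novel_circ_0004122, novel_circ_0001279 and novel_circ_0004645 it was 3.54, 3.85 and 3.19.

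**Figure D4:**
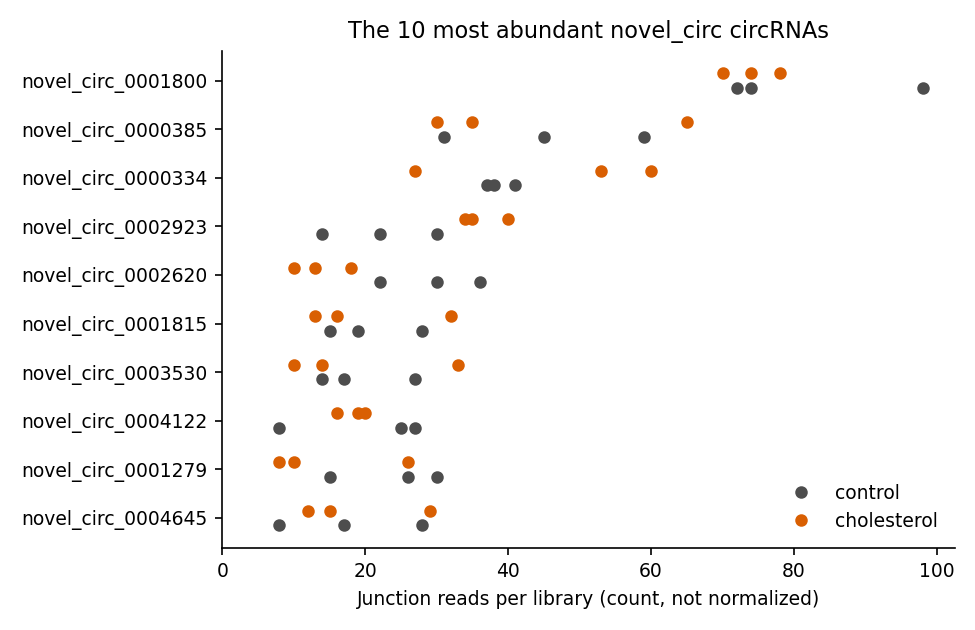
Junction reads (linear axis) in each of the 3 cholesterol and 3 control libraries for the 10 most abundant novel_circ circRNAs; a point is a library. The points of novel_circ_0001800 lie between 70 and 98 reads, and the groups separate only for novel_circ_0002923 (34 to 40 against 14 to 30 reads) and novel_circ_0002620 (10 to 18 against 22 to 36 reads).

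Across all 29 novel_circ circRNAs with reads in every library, the total was 33 to 466 reads, with a median of 84. The CPM of the highest library was 1.57 to 6.78 times that of the lowest, with a median of 3.08. Their log2 fold changes from cholesterol over control ran from -1.09 to 0.98, with a median of -0.03.

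No novel_circ circRNA passed the test of cholesterol against control after adjustment. With the edgeR quasi-likelihood test and Benjamini-Hochberg adjustment over all 3089 circRNAs, the smallest adjusted p of a novel_circ circRNA was 0.772, and none of the 3089 had an adjusted p under 0.05. With DESeq2 the smallest adjusted p was 0.911. At an unadjusted edgeR p under 0.05 there were 11 novel_circ circRNAs of 803 (1.37%), 2 higher with cholesterol (0.249%) and 9 lower (1.12%), beside a background of 2.46% of all circRNAs (1.23% higher, 1.23% lower). The share lay below the background in total, a difference that was not tested. All 11 had reads in at least 2 libraries, whereas 70.4% of novel_circ circRNAs and 47.0% of all circRNAs had reads in 1 library only. The shares are thus of sets with unlike counts. With DESeq2, 4 novel_circ circRNAs (0.498%; 1 higher, 3 lower) had an unadjusted p under 0.05, beside 1.17% of all (0.583% higher, 0.583% lower). The filterByExpr function of edgeR, which drops circRNAs of low count, kept 18 of the 803, of which 2 (11.1%; 1 higher, 1 lower) had an unadjusted p under 0.05, beside 7.09% of the 254 circRNAs kept (3.15% higher, 3.94% lower). Without cholesterol replicate 1, or without control replicate 2, the count in edgeR was 5 instead of 11.

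By the counts alone, the groups did not overlap in CPM for 14 novel_circ circRNAs (1.74%; 3 higher and 11 lower with cholesterol), beside 4.05% of all circRNAs (1.91% higher, 2.14% lower). Reads in all 3 libraries of 1 group and 0 in all 3 of the other were found for 4 novel_circ circRNAs (0.498%; 1 higher, 3 lower), beside 1.23% of all circRNAs (0.421% higher, 0.809% lower). A circRNA could meet either condition only with reads in at least 3 libraries, so that for the rest both outcomes were fixed. Such reads were found for 122 novel_circ circRNAs and for 1100 of all circRNAs. Of these, 14 and 125 had groups that did not overlap, and 4 and 38 had reads in all 3 libraries of 1 group alone. The percents above are thus of sets with unlike numbers of libraries with reads and do not compare rates of separation.

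**Figure D5:**
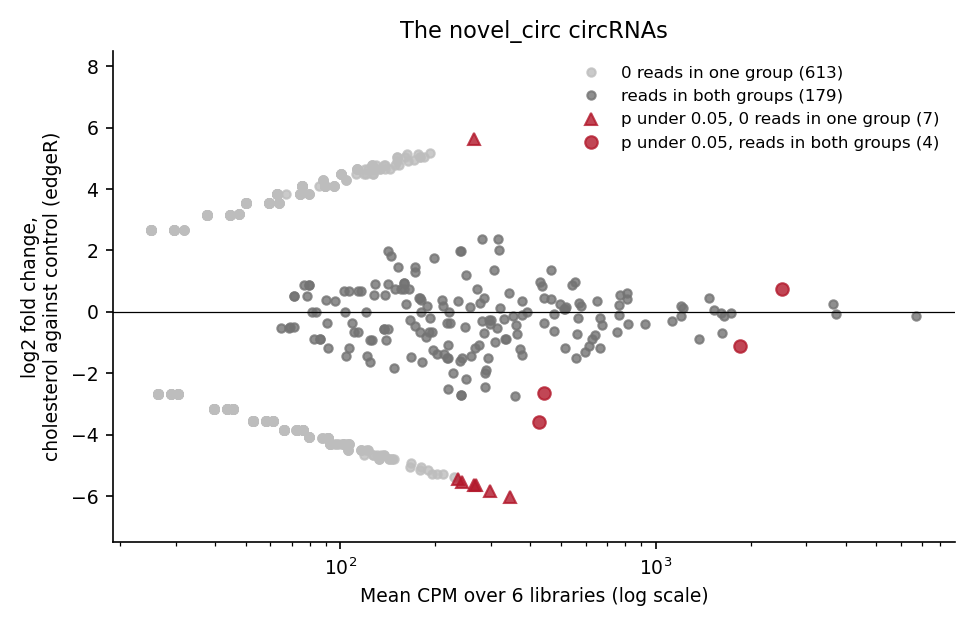
Log2 fold change of cholesterol over control from edgeR against mean CPM (log axis) for the 803 novel_circ circRNAs, marked by whether a circRNA had reads in both groups and whether its unadjusted p was under 0.05. Of the 11 with p under 0.05, 7 had 0 reads in all libraries of 1 group and 4 had reads in both; fold changes of circRNAs at 0 in a group depend on the prior count and are not sizes of effect.

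In the main edgeR fit the smallest p belonged to novel_circ_0000296, the circRNA with the TEAD1 primers printed above. It had 0, 0 and 0 reads in the cholesterol libraries and 11, 7 and 6 reads in the control libraries. Because counts of 1 are not listed, a listed 0 can stand for 0 or 1 read and allows a level of up to 4.74 reads per library (95% one-sided Poisson limit). All control libraries lay above that limit, at 692 ± 246 CPM (SD, n = 3), and no read was listed with cholesterol. In CPM, the control mean was 1.68 times that limit in the cholesterol libraries. This ratio makes no allowance for error in the control mean and is not a lower bound. The edgeR quasi-likelihood test gave an unadjusted p of 0.00906 and a Benjamini-Hochberg adjusted p of 0.772, and DESeq2 an unadjusted p of 0.00585. The unadjusted edgeR p was 0.0116 to 0.0493 when any 1 library was left out. The exact permutation p was 0.1, the smallest possible.

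Next in order of p was novel_circ_0002620, whose reads are given above (log2 fold change -1.09 ± 0.42 (SE), edgeR unadjusted p = 0.00919, adjusted p = 0.772). Without control replicate 1 its p was 0.0536 and its log2 fold change -0.94. On the other side, novel_circ_0002923 had a log2 fold change of 0.73 ± 0.34 (SE) with an unadjusted edgeR p of 0.0314. Its p rose above 0.05 without cholesterol replicate 1 (0.0536), cholesterol replicate 3 (0.118), control replicate 1 (0.0652) or control replicate 2 (0.167). These are the only novel_circ circRNAs with an unadjusted p under 0.05 among the 29 that had reads in every library. The other 8 of the 10 most abundant had log2 fold changes of -0.70 to 0.27, with unadjusted edgeR p-values of 0.117 to 0.942. Of these, novel_circ_0001279 had the smallest p, which was 0.0188 without cholesterol replicate 2 (log2 fold change -1.31), 0.0397 without control replicate 1 (-0.96) and 0.164 to 0.386 without any of the other 4 libraries.

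Among the circRNAs lower with cholesterol, novel_circ_0000020 had 0, 2 and 0 reads with cholesterol and 3, 14 and 11 reads without it. Relative to the library sizes, its total was 14 times as high in the control libraries (95% counting interval 3.53 to 121; edgeR unadjusted p = 0.0142, and 0.107 without control replicate 2). This ratio and the next are of listed reads and do not allow for unlisted counts of 1. For novel_circ_0003259 the reads were 0, 4 and 0 against 6, 13 and 8, a ratio of 6.74 on the same scale (95% counting interval 2.35 to 26.5; edgeR unadjusted p = 0.0373). Both had reads in every control library and in cholesterol replicate 2, the deepest library, alone of the cholesterol group. Without cholesterol replicate 2 the cholesterol group had no listed reads, and neither ratio can be given. The p of novel_circ_0003259 was 0.0835 without cholesterol replicate 1, 0.0761 without cholesterol replicate 3 and 0.171 without control replicate 2, and with all libraries its unadjusted p was 0.0522 with DESeq2.

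The other 6 circRNAs with an unadjusted edgeR p under 0.05 had reads in only 2 libraries of 1 group, 16 to 21 reads in total. Lower with cholesterol, with 0 reads in all its libraries, were novel_circ_0004013 with 15, 0 and 6 control reads, novel_circ_0002515 with 6, 12 and 0, and novel_circ_0000685 with 12, 6 and 0. Also at 0 with cholesterol were novel_circ_0002373 with 0, 9 and 8 control reads and novel_circ_0004552 with 11, 5 and 0. Higher with cholesterol was novel_circ_0000087, with 0, 6 and 12 reads against 0 in every control library. In each, 1 library of the group with reads was itself at 0, so that the groups overlapped. The mean CPM of the group with reads was 1.15 to 1.45 times the limit of 4.74 reads per library in the other group. This ratio makes no allowance for error in that mean and is not a lower bound. The unadjusted p-values were 0.0183 to 0.0497 with edgeR and 0.161 to 0.181 with DESeq2. An exact two-sided permutation test on CPM gave p = 0.4 for each. Without the library that held most of its reads, the unadjusted edgeR p was 0.268 for novel_circ_0004013 (control replicate 1), 0.272 for novel_circ_0002515 (control replicate 2) and 0.258 for novel_circ_0000685 (control replicate 1). It was 0.184 for novel_circ_0002373 (control replicate 2), 0.319 for novel_circ_0004552 (control replicate 1) and 0.274 for novel_circ_0000087 (cholesterol replicate 3). In each of the 6, the mean of the group's other 2 libraries then lay under the limit.

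Besides novel_circ_0000296, 3 circRNAs had reads in all libraries of 1 group and in none of the other, at lower counts. These were novel_circ_0001814 with 6, 5 and 3 control reads and novel_circ_0000818 with 7, 4 and 2 control reads. In the opposite direction, novel_circ_0002197 had 4, 3 and 6 reads with cholesterol and 0 in every control library. The unadjusted edgeR p-values were 0.0752, 0.0909 and 0.0896, respectively. Their group means lie at or under the limit of 4.74 reads per library, so that no fold is given.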

How the data were processed

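CircRNA-seq of 6 libraries (3 cholesterol, 3 control) was used, grouped by the sample labels. The authors depleted ribosomal RNA, digested linear RNA with RNase R, made strand-specific libraries, trimmed with cutadapt 2.7, aligned to GRCh38 with BWA 0.7.17 and counted back-splice junction reads with CIRI. The deposited counts are these reads without normalization, 9168 to 14322 per library, and beside them stand deposited CPM values (headed TPM), the counts scaled to a fixed library total. The CPM values were only compared with the counts.

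Cholesterol was tested against control with edgeR 4.0.16 (quasi-likelihood, TMM, prior count 0.125, no filter, condition only) on all 3089 circRNAs, with DESeq2 1.42.0 as an alternative, and Benjamini-Hochberg adjustment. Each test was tried on simulated data, and the outcome is not reported here. Values per library were compared by exact two-sided permutation, paired within libraries between kinds of circRNA. The smallest listed count is 2, so a listed 0 was taken to allow up to 4.74 reads (one-sided 95% Poisson limit for 1 read). Named are novel_circ_0000296, the 10 of highest mean CPM, up to 8 per direction with an unadjusted p under 0.05, and those with reads in all libraries of 1 group and none of the other. Outside this rule, novel_circ_0004552 and the highest single-library circRNAs were picked once their values were known. The prefix alone decided the members, but the choice of this prefix, the lists and the tests were made with earlier results of these data known. Alternatives were other scalings, filters, count minimums and prior counts, the legacy edgeR method, a replicate block, a fit of the novel_circ circRNAs alone, and leaving out each library. No pair of libraries was as close as sampling noise (chi-square per degree of freedom 3.37 to 4.54). Primers were matched to GRCh38 and GENCODE v44 transcripts.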

Additional observations from a re-analysis of the deposited data

How the results depend on the processing

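The count of novel_circ circRNAs with an unadjusted edgeR p under 0.05, 11, was 4 with DESeq2, 2 after filterByExpr (which kept 18 of the 803), 6 when the novel_circ circRNAs were fitted alone, and 5 to 12 with 1 library left out. Scaling by library size gave 10 and RLE factors 11. Replicate numbers did not pair the samples, since deviations of same-numbered libraries correlated at -0.025, 0.0374 and -0.145; with a replicate block the count was 4 (1 higher and 3 lower with cholesterol), of which 3 were among the 11. With the block the unadjusted p of novel_circ_0000296 was 0.0549, above the threshold of 0.05, and that of novel_circ_0001279 was 0.0467. That of novel_circ_0002620 was 0.00205 with the block, smaller than that of novel_circ_0000296. It was also the smaller with RLE factors (0.0079 against 0.00877) and with at least 2 reads in 3 libraries (0.00812 against 0.0104). It was the larger with DESeq2 (0.0163 against 0.00585) and library-size scaling (0.0156 against 0.0102). The recurrence difference between the groups, 4.30 points, was -0.90 with at least 5 reads required and -2.20 to 8.38 with 1 library left out. The differences between novel_circ and hsa_circ circRNAs kept their sign with each library left out, at -3.43 to -3.08 reads per circRNA, -17.6 to -16.8 points of those listed, -30.0 to -27.3 points of recurrence and -32.1 to -29.5 points at 2 to 5 reads, where 5 libraries allow no p below 0.0625. Log2 fold changes near 0 turned sign. With library-size scaling, which moved the median of circRNAs with reads in both groups by 0.063, novel_circ_0000385 came to 0.0031, novel_circ_0001815 to 0.029 and novel_circ_0003530 to 0.023. Fitted alone, they came to 0.053, 0.063 and 0.057, and novel_circ_0004122 to 0.0084. With 1 library left out, the ranges were -0.39 to 0.095 for novel_circ_0000385, -0.30 to 0.049 for novel_circ_0001800, -0.43 to 0.23 for novel_circ_0001815, -0.61 to 0.26 for novel_circ_0003530, -0.52 to 0.18 for novel_circ_0004122 and -0.31 to 0.48 for novel_circ_0004645. The cause was not tested. The unadjusted p of novel_circ_0003259 was also above 0.05 with the legacy method (0.0958), with the replicate block (0.0753) and among novel_circ circRNAs fitted alone (0.0708). For novel_circ_0001814, novel_circ_0000818 and novel_circ_0002197 it was 0.0185, 0.0241 and 0.0214 with a filter of at least 2 reads in 3 libraries, which they passed only through the group with reads, 0.314, 0.357 and 0.347 with the replicate block, and 0.0821 to 0.261 over the fits without 1 library. At these depths a listed 0 cannot be told from a level of up to 4.74 reads per library.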
